A study of Mus musculus with 6 samples.

Results

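Alpha-fetoprotein (Afp) and 7 further genes of the hepatic secretory programme were followed in dermal fibroblasts exposed to a demethylating drug, to see whether Afp came on alone or with other liver genes. The 8 genes were Afp, Alb, Ttr, Apoa1, Apob, Fga, Fgb and Hnf4a, of 18193 genes with at least 1 single-gene probe set on the arrays. They were represented by the 22 probe sets whose only gene symbol was one of these names, with no filter on intensity, and 5 of the 22 belonged to Afp. The genes were chosen with the treated against control values of these arrays known, so their values are given as a description, without a p-value for any of them. Where members past the threshold of the fit are counted, the count is part of that description.

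The cells were primary mouse dermal fibroblasts, the matrix-producing cells of skin, explanted from B6 mice of mixed sex aged 0 to 2 days and used at passage 4. The 3 treated cultures received 5-aza-2'-deoxycytidine at 5 µM during 96 hours, with fresh drug every 24 hours, followed by 24 hours in normal medium. The 3 control cultures were untreated, and each culture was measured on 1 Affymetrix array. No array recorded DNA methylation, and the untreated controls carried no vehicle named in the labels. The labels call the replicates biological, explanted separately, without naming the animals or any pooling. The drug, also called decitabine, is a nucleoside that replicating DNA takes up in place of deoxycytidine, where it binds DNA methyltransferases and leaves the new strand unmethylated.

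Afp is the main plasma protein of the fetus. It is made by the visceral endoderm of the yolk sac and by fetal liver, and its gene is shut down after birth. It lies beside its relatives albumin (Alb) and afamin (Afm) in the albumin gene family cluster, where each gene has its own promoter. In hepatocytes such promoters are driven by liver-enriched factors, among them HNF4A, FOXA and C/EBP proteins, while Zhx2, Zbtb20 and Zfhx3 are known as repressors of Afp.

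The stretches before the starts of Afp, of its flanking relatives and of the nearby genes that rose (Rassf6 and Ppbp, below) are printed because the drug acts on CG sites and the genes behaved differently. Each is the 250 bases before the start, 5′ to 3′ on the gene's own strand, from RefSeq on GRCm38.p6, with CG dinucleotides in capitals. Alb lies at chr5:90460620-90460869, Afp at chr5:90490464-90490713, Afm at chr5:90518699-90518948 and Ppbp at chr5:90768268-90768517, all on the plus strand, and Rassf6 at chr5:90640528-90640777 on the minus strand.
Alb: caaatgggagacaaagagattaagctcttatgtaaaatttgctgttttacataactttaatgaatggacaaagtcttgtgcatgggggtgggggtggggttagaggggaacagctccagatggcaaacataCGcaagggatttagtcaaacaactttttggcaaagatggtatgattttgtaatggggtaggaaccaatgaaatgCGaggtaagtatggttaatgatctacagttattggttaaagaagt
Afp: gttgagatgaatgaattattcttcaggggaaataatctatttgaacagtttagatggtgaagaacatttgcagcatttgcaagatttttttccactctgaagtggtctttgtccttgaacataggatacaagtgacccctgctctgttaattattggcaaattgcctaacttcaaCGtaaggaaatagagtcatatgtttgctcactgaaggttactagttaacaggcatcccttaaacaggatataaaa
Afm: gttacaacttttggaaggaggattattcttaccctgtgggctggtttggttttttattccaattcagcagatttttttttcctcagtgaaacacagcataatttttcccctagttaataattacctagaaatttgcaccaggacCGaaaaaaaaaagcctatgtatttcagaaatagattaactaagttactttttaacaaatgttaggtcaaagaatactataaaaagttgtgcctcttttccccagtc
Rassf6: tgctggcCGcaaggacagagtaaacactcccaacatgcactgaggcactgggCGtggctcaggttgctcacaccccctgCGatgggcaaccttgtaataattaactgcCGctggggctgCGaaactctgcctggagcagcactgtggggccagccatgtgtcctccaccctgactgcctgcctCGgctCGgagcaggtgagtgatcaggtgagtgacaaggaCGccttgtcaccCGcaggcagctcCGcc
Ppbp: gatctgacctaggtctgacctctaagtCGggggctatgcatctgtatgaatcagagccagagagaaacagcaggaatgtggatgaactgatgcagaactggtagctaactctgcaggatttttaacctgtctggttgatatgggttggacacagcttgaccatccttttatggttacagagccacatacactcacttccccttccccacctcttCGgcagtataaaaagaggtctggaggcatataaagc

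Afp and Alb had the same number of CG dinucleotides, 3 each, in windows of 300 bases that run from 250 before to 50 after the start. The median over 32851 such windows in the table was 7, and 31.4% of windows had 3 or fewer. Afm had 1, Ppbp 3 and Rassf6 13. Of the other members, Fga had 3, Apoa1 4, Fgb 5, Apob 9, and Hnf4a 4 in each of its 2 windows; Ttr had no window here. Short motifs were searched on both strands in the 7 members with a window. TATAAA was found in Afp and Apob (13.6% of all windows), CCAAT in Afp, Alb and Hnf4a (37.4%) and the FOXA letters TATTTAC in Fgb (3.04%). The FOXA letters TGTTTAC (3.65% of all windows) and the nuclear receptor half-site AGGTCA (16.3%) were in 0 of the 7. These are matches of letters and not measured binding, and their part in the Afp result was not tested. Other motifs, such as the HNF1 half-site, were not searched.

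Afp was near zero on every control array and moderately bright on every treated array. At its brightest probe set, 1416645_a_at, the signal was 0.259, 0.432 and 0.814 in control cultures 1 to 3 and 315.1, 315.8 and 319.7 in treated cultures 1 to 3. All 3 treated values lay far above all 3 controls. The mean went from 0.502 ± 0.284 (SD, n = 3) to 316.8 ± 2.50. On the controls this probe set lay between the 0.0955th and 0.760th percentile of the array, and on the treated arrays between the 82.5th and 82.6th. On the log2(signal + 9.66) scale used throughout, which understates the change of dim probe sets, the difference was 5.01 ± 0.24 (SE of the fit). With controls this dim the size depends on the pseudocount: it was 7.04 with a pseudocount of 1.93 and 3.18 with one of 38.6.

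A further 3 of the 5 Afp probe sets showed the same pattern. The signal at 1416646_at was 4.06, 7.77 and 7.02 in controls and 102.0, 110.8 and 113.9 in treated cultures. At 1436879_x_at it was 1.64, 1.08 and 0.916 in controls and 117.8, 150.03 and 137.9 in treated cultures. At 1436881_x_at it was 0.345, 1.40 and 0.712 in controls against 38.98, 71.9 and 71.3. In each of the 3 the groups were far apart, and the log2 differences were 2.90 ± 0.28, 3.73 ± 0.28 and 2.71 ± 0.30 (SE). The fifth, 1436880_at, stayed dim, at 3.37, 5.18 and 3.87 in controls and 2.85, 5.58 and 3.51 in treated cultures (-0.02 ± 0.16). It was annotated from the same accession as 1436881_x_at, so the same accession gave a reading near the array median and a dim one in the treated cultures. With all 5 probe sets averaged the Afp difference was 2.87 ± 0.20. The suffix _x_at marks probe sets with probes that can match other transcripts.

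**Figure D1:**
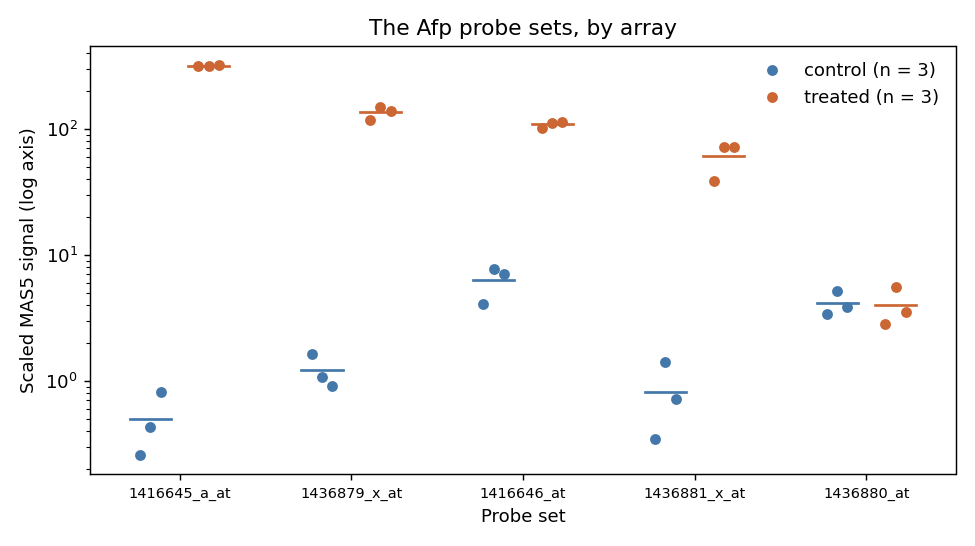
Signal of the 5 Afp probe sets on each array (log axis, scaled MAS5 signal), with controls in blue, treated cultures in orange and bars at group means (n = 3). In 4 of the probe sets every treated array lies above every control, and 1436880_at is dim in both groups.

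None of the other 7 genes followed Afp. Their 17 probe sets had signals of at most 108.3 on any array, and 13 of the 17 lay below the array median on all 6 arrays. Their log2 differences ran from -0.44 to 0.63 with a median of -0.02, beside a median of 0.00 over all 45037 probe sets. By limma, 0 of the 17 passed an adjusted p of 0.05, and 0 had an unadjusted p under 0.05, while 4 of the 5 Afp probe sets passed (all higher). Over all probe sets 18.9% passed the adjusted threshold, 9.07% higher and 9.8% lower. The share of all probe sets with an unadjusted p under 0.05 was not counted. Taking for each gene its representing probe set, the brightest on average, 1 of the 8 genes passed, beside 25.2% of all genes. The groups did not overlap for 5 of the 22 member probe sets, the 4 of Afp and 1 of Apob, beside 34.1% of all probe sets. Nothing is read from these shares, because the genes were chosen on this contrast.

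Albumin, the chief plasma protein of the adult and the neighbour of Afp, was dim and scattered. Its single probe set read 55.2, 27.1 and 31.7 in controls and 9.32, 25.9 and 56.3 in treated cultures. The groups overlapped, with the lowest and the highest value both in treated cultures. The log2 difference was -0.38 ± 0.47 (SE), an error wide enough that even a sizeable change either way could have been missed. Transthyretin (Ttr), a carrier of thyroid hormone and retinol-binding protein, was dim at all 4 of its probe sets. At the representing one the signal was 1.81, 17.8 and 12.6 in controls and 15.3, 22.3 and 15.6 in treated cultures. The groups overlapped (0.51 ± 0.35), and the other Ttr probe sets differed by -0.09, -0.07 and 0.22.

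The apolipoproteins did not share the Afp pattern. Apoa1, the main protein of high-density lipoprotein, read 10.96, 13.1 and 9.67 in controls and 12.4, 14.2 and 10.2 in treated cultures at its representing probe set. The groups overlapped there (0.07 ± 0.23), and the other 3 differed by -0.08 to 0.10. Apob, the structural protein of chylomicrons and low-density lipoprotein, read 36.4, 66.7 and 57.3 in controls and 78.7, 72.97 and 74.7 in treated cultures at the representing probe set. All 3 treated values were above the controls there, by a log2 difference of 0.46 ± 0.26. The other Apob probe set read 35.1, 29.8 and 24.6 in controls and 15.8, 43.6 and 20.5 in treated cultures, where the groups overlapped (-0.19 ± 0.36). The 2 probe sets of Apob thus differed in sign. Mttp, which loads lipid onto Apob, had a log2 difference of 0.67 ± 0.24 (limma adjusted p = 0.0978).

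The fibrinogen chains, which form the clotting protein of plasma, were dim in both groups. Fga read 6.21, 11.4 and 15.2 in controls and 3.88, 55.03 and 25.7 in treated cultures. Treated cultures 2 and 3 were above the controls and treated culture 1 below them, so the groups overlapped (0.63 ± 0.52). Fgb read 3.97, 14.1 and 3.16 in controls and 1.68, 1.77 and 3.23 in treated cultures (-0.44 ± 0.24). The groups overlapped and the treated values were at the lower end. Fgg, the third chain, had a log2 difference of -0.07 ± 0.23 (limma adjusted p = 0.890).

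Hnf4a, the nuclear receptor that holds the hepatocyte programme together, showed no separation between the groups at any of its 4 probe sets. At the representing probe set it read 70.2, 92.7 and 86.9 in controls and 86.9, 108.3 and 100.4 in treated cultures. The groups overlapped by a narrow margin (0.22 ± 0.19). A second probe set read 47.3, 64.2 and 63.5 in controls and 38.2, 73.4 and 63.9 in treated cultures, with a difference of -0.02 ± 0.29. The remaining 2 differed by -0.38 and -0.08.

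**Figure D2:**
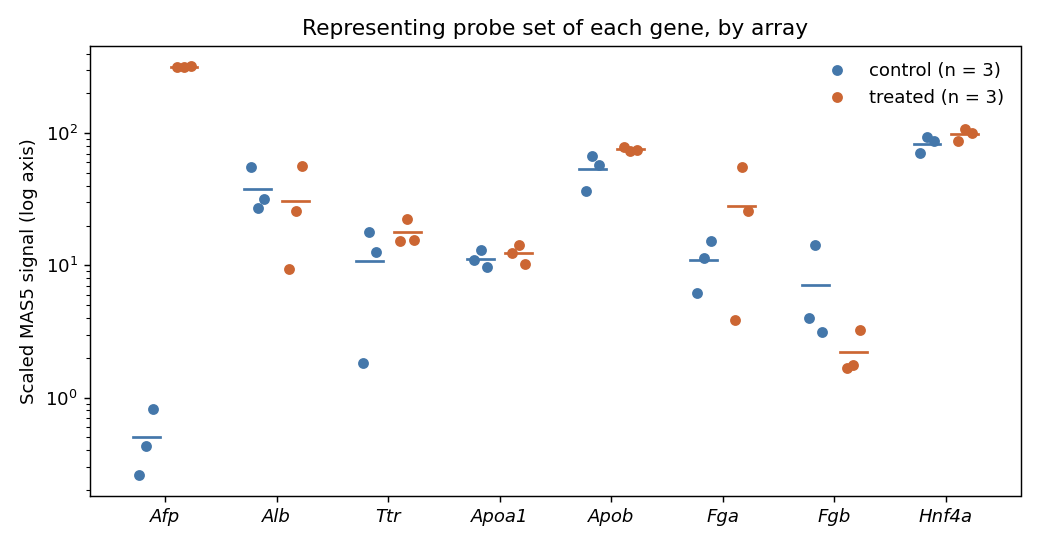
Scaled MAS5 signal (log axis) of the representing probe set of each gene on each array, controls in blue, treated cultures in orange, bars at group means (n = 3). Afp moves from under 1 to above 315 signal units, while the points of the other genes overlap between groups or, for Apob, lie just apart.

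Genes beside Afp did not rise as a block. The 12 nearest genes with a probe set, 6 on each side with Alb left aside, were compared by limma. Of these, 3 rose and 0 fell at an adjusted p of 0.05, beside 12.2% and 13% of all genes. At an unadjusted p under 0.05, 4 were higher and 0 lower, where the share of all genes was not counted. The flanking relatives Afm (-0.28 ± 0.18 SE, adjusted p = 0.374) and Albfm1 (0.08 ± 0.42, adjusted p = 0.935) did not pass. Afm read 108.5, 151.7 and 117.6 in controls and 89.2, 113.8 and 102.0 in treated cultures, and the groups overlapped.

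Rassf6, a Ras-association domain protein next beyond Albfm1, rose. Its signal was 122.2, 144.3 and 100.9 in controls and 766.4, 796.6 and 649.9 in treated cultures, a log2 change of 2.51 ± 0.14 (SE; limma adjusted p = 6.48e-06). Ppbp, a platelet chemokine of the adjoining Cxc cluster, rose from 97.5, 85.02 and 77.2 to 732.9, 790.01 and 750.6 (3.00 ± 0.11; adjusted p = 7.45e-07). In both genes every treated value was several times above every control. Between them Cxcl5, a neutrophil chemokine, read 877.7, 742.6 and 740.1 in controls and 863.3, 452.03 and 2046.2 in treated cultures, so it was spread in the treated group and did not pass (0.24 ± 0.43; adjusted p = 0.784). Pf4, platelet factor 4, was at 0.77 ± 0.24 (adjusted p = 0.0608); it passed with the filter on dim probe sets (adjusted p = 0.0271), with the replicate block (0.0394) and with the probe sets of every gene averaged (0.0345), which made 4 risers.

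On the other side, past Alb, only Cox18, a mitochondrial assembly factor, passed (0.57 ± 0.11; adjusted p = 0.0070). Its call was lost without scaling (0.50; adjusted p = 0.201) and without the intensity trend (0.57; adjusted p = 0.0511). Ankrd17 (0.05 ± 0.07; adjusted p = 0.707), Gm9958 (-0.30 ± 0.26; 0.522), Adamts3 (0.10 ± 0.30; 0.885), Gm7056 (0.08 ± 0.26; 0.888) and Npffr2 (-0.02 ± 0.40; 0.983) did not pass by limma, where the second value is the SE and the third the adjusted p. The genes that passed were thus interrupted by genes that did not.

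**Figure D3:**
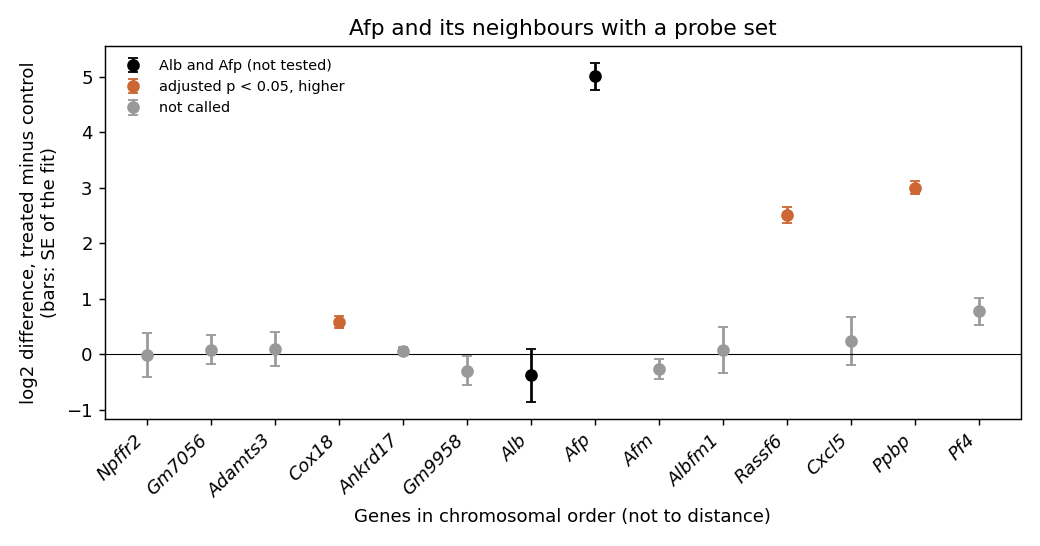
Log2 difference, treated minus control, of Afp, Alb and the 12 nearest genes with a probe set, in chromosomal order and not to distance; bars are the SE of the fit and n = 3 a group. Afp stands at 5.01 between Alb and Afm, both below 0, while Rassf6 (2.51) and Ppbp (3.00) lie further along.

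The wider set of plasma proteins made by liver was mostly not called. Of 80 on the array, 7 rose (8.75%) and 2 fell (2.5%) by limma, where 12.2% of all genes rose and 13% fell. The median log2 difference was 0.04 beside 0.02 over all genes. At an unadjusted p under 0.05, 12 were higher and 7 lower. The share of all genes at that threshold was not counted, so nothing is read from these 2 counts. With the filter on dim probe sets, 25 of the list were left, of which 8 rose and 2 fell. Beside them, 4295 of the 23363 probe sets kept rose and 4744 fell. A gene can pass that filter through its treated arrays alone. The hepatocyte products Ahsg (fetuin-A, 0.60 ± 0.40, limma adjusted p = 0.391) and Fgg were among those that did not pass. Larger differences that did not pass included Hp (1.36 ± 0.44, adjusted p = 0.0682) and Saa4 (-1.09 ± 0.37, adjusted p = 0.0738). The groups did not overlap for either Hp or Saa4. Of the 80, 40 lay below the array median on all 6 arrays. The strongest riser was Saa3, an acute-phase protein also made outside the liver, which read 257.0, 235.0 and 117.6 in controls and 4103, 1505 and 3367 in treated cultures. Every treated value was above every control (3.77 ± 0.38; limma adjusted p = 0.000185). Angptl4, an inhibitor of lipoprotein lipase, rose by 2.07 ± 0.18, Masp1, a protease of the lectin complement pathway, by 1.34 ± 0.091, and Hamp2, a relative of the iron hormone hepcidin, by 2.18 ± 0.29. A second Angptl4 probe set was at 0.69 and was not called. A second Hamp2 probe set, at 1.76, was called higher. Of 5 Masp1 probe sets, which ran from 0.26 to 2.17, 4 were called higher. The probes of Hamp2 may also read its near copy Hamp. The other risers, named after their values were seen, were Apoh (0.70), Fetub (0.99) and Hamp (0.60), and each lost its call on leaving out some single arrays (adjusted p from 0.0517 to 0.0739, from 0.0589 to 0.08 and from 0.0625 to 0.157). Apoh and Hamp each had a second probe set that was not called, at 0.33 and -0.10. With probe sets averaged both lost their calls, at 0.51 (limma adjusted p = 0.0683) and 0.25 (0.471). The fallers were Serpinf1, an antiangiogenic serpin (-0.80 ± 0.16), and the complement inhibitor Serping1 (-0.74 ± 0.16); 4 fell without control replicate 3.

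Transcription factors of liver fell or did not pass. Of 26 on the array, 0 rose by limma and 6 fell (23.1%), beside 12.2% and 13% of all genes. The median was -0.10 beside 0.02. At an unadjusted p under 0.05, 2 were higher and 6 lower, where the share of all genes was not counted. Nfib, a nuclear factor I family member, read 580.2, 476.9 and 712.6 in controls and 124.6, 101.1 and 149.5 in treated cultures (-2.15 ± 0.18; adjusted p = 5.36e-05). Its relative Nfia changed by -1.29 ± 0.20, the clock output factor Dbp by -1.79 ± 0.15 and Cebpd by -1.02 ± 0.15. Cebpa, which drives many hepatocyte promoters, read 135.3, 117.2 and 100.9 in controls and 47.8, 9.48 and 57.02 in treated cultures. It fell by 1.60 ± 0.44 (adjusted p = 0.0358), and the call was lost without any 1 of the controls (adjusted p from 0.0759 to 0.113). Gata6, a factor of liver bud and yolk sac, changed by -0.53 ± 0.15 and lost its call without any 1 of 4 arrays (adjusted p from 0.0548 to 0.113). Without treated replicate 2, 1 factor rose.

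The pioneer factors Foxa1 and Foxa2 did not pass, nor did Nr5a2. Foxa1 read 6.64, 33.4 and 18.3 in controls and 44.8, 51.03 and 32.7 in treated cultures (0.94 ± 0.40; limma adjusted p = 0.155). Foxa2 was at -0.49 ± 0.39 (adjusted p = 0.472) and Nr5a2, a nuclear receptor that binds Afp enhancers and promoter, at -0.32 ± 0.30 (adjusted p = 0.562) at its brightest of 4 probe sets, of which 0 were called. Trp53 was not analysed here.

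Of 3 known repressors of Afp, 2 were not called. Zhx2 read 143.2, 215.5 and 135.2 in controls and 90.9, 157.4 and 124.8 in treated cultures, with overlapping groups (-0.38 ± 0.23; adjusted p = 0.341 by limma). Zbtb20 was measured by 9 probe sets and 0 of them were called, with differences from -0.82 to 0.58; the brightest was at 0.07 ± 0.15 (adjusted p = 0.831). Zfhx3 (ATBF1) read 371.3, 398.9 and 591.1 in controls and 307.4, 299.03 and 279.3 in treated cultures at its brightest probe set (-0.57 ± 0.16; adjusted p = 0.0378). Its call was lost without any 1 of 4 arrays (adjusted p from 0.0528 to 0.11), and of its 6 probe sets 2 were called lower and another was at 0.44.

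Among these regulators and other oncofetal genes together, 2 of 22 rose (9.09%) and 4 fell (18.2%), beside 12.2% and 13% of all genes, with a median of -0.19 beside 0.02. The 3 large falls were in genes that, like Afp, are high in fetal tissue. Dlk1, a Notch-related protein, read 950.9, 917.2 and 1253 in controls and 134.03, 138.4 and 143.1 in treated cultures (-2.81 ± 0.12; limma adjusted p = 1.96e-06). A dimmer Dlk1 probe set was at 0.46 and was not called. The growth factor Igf2 (-2.63 ± 0.22) and the heparan sulphate proteoglycan Gpc3 (-1.95 ± 0.40) also fell. A second Igf2 probe set was at -1.12 and was not called. The risers were Hmga2, a chromatin protein (1.36 ± 0.070), and Cdh17, a cadherin of intestine and liver (1.28 ± 0.38). Cdh17 lost its call without any 1 of 5 arrays (adjusted p from 0.0918 to 0.146), which left 1 riser.

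Mature hepatocyte enzymes and transporters were mostly not called. Of 58 on the array, 3 rose (5.17%) and 2 fell (3.45%) by limma, beside 12.2% and 13% of all genes. The median was 0.10 beside 0.02. At an unadjusted p under 0.05, 10 were higher and 2 lower, again without a count of the share of all genes at that threshold. With the filter on dim probe sets, 20 of the list were left, of which 2 rose and 2 fell. Of the 23363 probe sets kept by that filter, 4295 rose and 4744 fell. Arg1, the last enzyme of the urea cycle and also a macrophage enzyme, went from 1.73, 1.51 and 1.12 to 35.7, 34.8 and 20.9 (1.83 ± 0.25; adjusted p = 0.000977). All treated values were above the controls but dim. Asl, another urea cycle enzyme (0.74), lost its call without any 1 of 4 arrays (limma adjusted p from 0.0514 to 0.0736). The glutathione transferase Gsta3 (1.08) also lost its call without any 1 of 4 arrays (adjusted p from 0.0814 to 0.131). A second Gsta3 probe set was at 1.57 and was called higher too. Without control replicate 2, 1 gene of the list rose. Cps1, the entry enzyme of the urea cycle, did not differ detectably (-0.06 ± 0.28; adjusted p = 0.923). Adh1, alcohol dehydrogenase, fell from 769.2, 874.2 and 546.3 to 56.1, 62.5 and 41.4 (-3.54 ± 0.20), and Cth, which makes cysteine, changed by -1.41 ± 0.13.

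Yolk sac endoderm, the other normal source of Afp, was represented by 35 genes. Of these, 5 rose (14.3%) and 4 fell (11.4%) by limma, shares near the 12.2% and 13% of all genes, with a median of 0.13 beside 0.02. Rhox5, a homeobox gene of testis and extraembryonic endoderm, read 54.6, 74.6 and 23.4 in controls and 819.3, 847.5 and 1074 in treated cultures (4.02 ± 0.30; adjusted p = 3.28e-05). The anticoagulant receptor Thbd rose by 1.38 ± 0.070, and the basement membrane chains Col4a1 and Col4a2 by 0.71 ± 0.10 and 0.52 ± 0.076. The fifth riser, named after its values were seen, was the T-box factor Eomes (1.20 ± 0.32), which lost its call without any 1 of 5 arrays (adjusted p from 0.0552 to 0.0975). Dab2, an endocytic adaptor, changed by -1.09 ± 0.10, the receptor Pth1r by -1.99 ± 0.20 and the protease Plat by -1.09 ± 0.14, and Gata6 is given above. A second Plat probe set was at -0.19 and not called, and with both averaged Plat lost its call (-0.64; adjusted p = 0.157). The endoderm factor Sox17 (0.13 ± 0.21; adjusted p = 0.762) and the endocytic receptor Cubn (0.35 ± 0.28; adjusted p = 0.477) did not pass. Without scaling 2 rose, and with the probe sets of each gene averaged 8 rose and 2 fell.

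**Figure D4:**
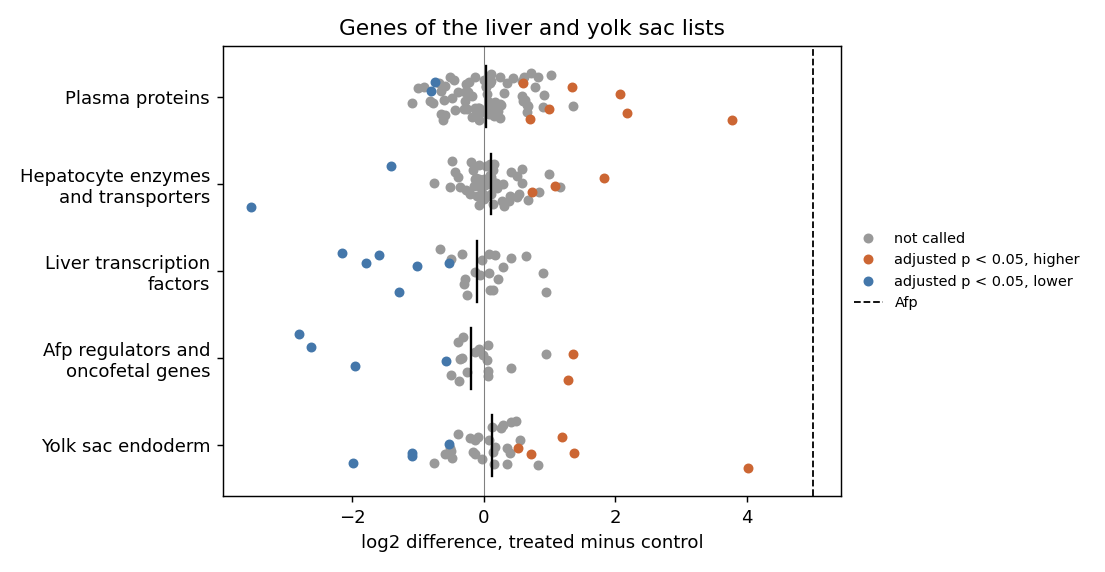
Log2 difference, treated minus control, of each gene of 5 lists by its representing probe set; orange and blue mark genes past an adjusted p of 0.05, black bars the medians of the lists and the dashed line Afp at 5.01. Most genes lie near 0, and Rhox5 (4.02) and Saa3 (3.77) come nearest to Afp.

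The genes most like Afp across the arrays, with clone- or model-numbered genes passed over, were not liver genes. Likeness was the Euclidean distance between log2 values over the 6 arrays after centring each probe set on its own mean, so it compares the change between 2 groups and little else. The nearest were Serpinb2, a protease inhibitor of placenta and macrophages (distance 0.38), the meiotic gene Mnd1 (0.56), the placental prolactin relative Prl8a9 (0.56), the semaphorin Sema3e (0.66) and the germ cell RNA-binding protein Dazl (0.68). Their log2 changes ran from 4.56 to 5.07. Prl8a9, for example, read 1.90, 5.50 and 4.48 in controls and 305.6, 308.1 and 370.2 in treated cultures. In their windows of 300 bases around the start, Prl8a9 had 2 CG dinucleotides, Sema3e 11, Mnd1 12 and Dazl 28. Serpinb2 had 1 and 4 in its 2 windows. Whether the CG count goes with the change was not tested, since these genes were picked by their change.

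A gene could also be described as switched on if it lay below the 40th percentile on all controls and over the median on each treated array. This held for 99 of the 18193 genes and 196 of 45037 probe sets. Of the 8 genes it held for Afp only, through 3 of its probe sets.

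The cultures were checked against cell type markers. Of 12 fibroblast markers, 11 lay above the array median on all 6 arrays, and Vim differed by 0.13 (limma adjusted p = 0.446), but 10 of the 12 fell and 1 rose, Col1a1 by -1.70 and Col3a1 by -1.79 among them. A second Col1a1 probe set was at -0.44 and was not called. The summed fibroblast signal was 58802 to 65158 in controls and 31849 to 38121 in treated cultures. Whether a type became rarer or its cells held less RNA cannot be told apart in such samples. Hepatocyte markers, which include the 7 liver genes above, summed to 296.1 to 350.9 in controls and 326.8 to 436.4 in treated cultures; 5 of the 10 on the array lay below the median on all arrays and 0 were at 0 signal units. Of the other 10 marker lists, hepatocytes included, the sums were apart only for skeletal muscle (779.9 to 929.2 in controls, 4686 to 5408 in treated cultures, where 2 of 6 markers rose and most of the sum was Acta1) and choroid plexus (203.8 to 277.4 and 323.6 to 404.9, where 2 of 6 markers rose). The sums of cholangiocyte markers overlapped, but of 5 on the array 2 rose and 1 fell by limma. Krt7 changed by 2.42 ± 0.37 (adjusted p = 0.00187), Krt19 by 1.52 ± 0.17 (0.000348) and Sox9 by -1.49 ± 0.19 (0.000624). The part of these markers, and of the 3' to 5' ratio of Actb, a measure of RNA integrity that was 1.26 to 1.28 in controls and 1.14 to 1.18 in treated cultures, in the Afp result was not tested.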

How the data were processed

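The authors deposited MAS5 intensity values, 1 per probe set and array, on a linear scale; the submitters' processing notes name MAS5, and neither its version nor its target intensity is given in the sources used here. Trimmed means of the deposited arrays ran from 149.2 to 223.9, so each was scaled to a 2% trimmed mean of 193.2. Signals were analysed as log2(signal + 9.66), the pseudocount being 0.05 of that mean. All 45037 non-control probe sets were fitted by limma with lmFit and trended eBayes (limma 3.58.1, R 4.3.3; two-sided), group as the sole term, and p-values were adjusted by Benjamini-Hochberg over all of them. No detection calls were used, so dim readings cannot be told from background, and n = 3 a group limits precision.

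Genes were named through the platform annotation: 34945 probe sets named 1 gene, 932 several and 9160 none. A gene was represented by its probe set with the highest mean log2 value. A filter, used only as an alternative, kept probe sets above the array median on at least 3 arrays; it kept 6 of the 22 member probe sets, from 3 of the 8 genes, 3 of them from Afp through its treated arrays. Members and lists were chosen with earlier results of these data known. Text names the members, up to 4 genes per list and direction by smallest p, Afp neighbours and set regulators. It also names the 5 nearest patterns, with clone- or model-numbered genes passed over. Outside this rule it names the remaining called genes of some lists, cholangiocyte markers and the uncalled Mttp, Fgg, Ahsg, Hp, Saa4, Cps1, Sox17 and Cubn. On simulated data with 45037 probe sets of this comparison, 44.4% of 2-fold and 84.6% of 4-fold changes were recovered, with 2.83% of calls false. Each of 5 runs held 200 changed probe sets, while 8499 were called in these data, so the recovered shares need not hold here. The changed probe sets were drawn only from those kept by the filter. Recovery among dimmer probe sets, which include most member probe sets, was therefore not measured. Promoter windows came from RefSeq on GRCm38.p6 (7 of 8 members matched).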

Additional observations from a re-analysis of the deposited data

How the results depend on the processing

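The size of the Afp difference, a description since Afp was chosen on this contrast, followed the pseudocount and the probe sets used: 7.04 and 3.18 with the smaller and larger pseudocount, 4.96 without scaling, 5.04 after quantile normalization and 2.87 with its probe sets averaged, against 4.99 to 5.03 with any 1 array left out. Over the settings, differences of the other genes ran from -0.83 to 0.07 for Alb and from 0.11 to 1.24 for Fga, for example; these genes too were chosen with this contrast known. Over all probe sets 4084 rose and 4415 fell; without scaling these were 1757 and 2595, and with 1 array left out 3216 to 3565 and 3553 to 3787. Regulators and oncofetal genes that rose numbered 1 with the filter on dim probe sets, with the larger pseudocount and without the intensity trend, and 1 to 2 with 1 array left out. Without the intensity trend 1 plasma protein fell, and with 1 array left out 2 to 4 did. With 1 array left out 1 to 2 hepatocyte enzymes and 0 to 1 liver transcription factors rose. Yolk sac genes that rose numbered 2 without scaling and 8 with probe sets averaged, where 2 fell. The cause of these shifts was not tested. The differences of Alb and Hnf4a, which were not called, crossed 0 in some settings (0.07 for Alb without treated replicate 1, -0.06 for Hnf4a with probe sets averaged); no called value changed sign.

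Treated and control cultures share replicate numbers, but the deviations of same-numbered arrays correlated at 0.0998, 0.101 and 0.0399, so the numbers were not taken as pairs. Each array correlated best with its own number, a hint from the data and not from the design. With a replicate block 4213 probe sets rose and 4544 fell, and the Afp difference was 5.01 ± 0.25; among the named genes Pf4 gained its call and Eomes lost it (adjusted p = 0.0394 and 0.0515).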
